A study of Mus musculus with 16 samples.

Results

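The respiratory chain and the ATP synthase of the inner mitochondrial membrane are built from proteins of the nucleus and of the mitochondrial DNA, and the transcripts of the nuclear-encoded subunits were examined here in 16 mouse livers. Genes were taken by symbol, as those beginning with Ndufa, Ndufb, Ndufc, Ndufs, Ndufv, Uqcr, Atp5 or Cox followed by 4 to 8, together with Sdha, Sdhb, Sdhc and Sdhd. Assembly factors whose symbols begin with Ndufaf were left out, and a mean of at least 1 FPKM (fragments per kilobase, relative to library size) over the 16 livers was required. This gave 78 of 17410 genes, with 38 in complex I, 4 in complex II, 8 in complex III, 12 in complex IV and 16 in complex V. The symbols also bring in a few relatives that are not subunits in a strict sense. Cox7a2l is known for joining complexes III and IV into supercomplexes, Ndufa4 has been assigned to complex IV, and Atp5s is a soluble coupling factor. The subunits encoded by mitochondrial DNA were not analysed here.

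The livers came from 4 groups of 4 that served 2 experiments on ChREBPα, the longer form of ChREBP, a transcription factor that responds to carbohydrate and is encoded by Mlxipl. LKO_NASH livers (21 to 24) were from Chrebpα-flox/flox mice given AAV-TBG-Cre, in which the hepatocyte promoter TBG drives Cre recombinase. WT_NASH livers (17 to 20) were from mice of the same floxed genotype given AAV-TBG-GFP. Both ate a NASH diet, with palm oil, 40% of calories as fat, 20% as fructose and 2% cholesterol, for 12 weeks. Ad_Chrebpa_HFLMCD livers (13 to 16) were from wildtype mice given an adenovirus for Chrebpα, and Ad_GFP_HFLMCD livers (9 to 12) from wildtype mice given an adenovirus for GFP. These mice were 2 months old when an HFLMCD diet began, with 45% of calories as fat, no choline and 0.1% added methionine. They ate it for 3 weeks and received the virus 1 week before dissection. The labels number the livers without saying outright that each is a separate animal, so p-values here reflect only how far the samples of a group spread, which may be technical.

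Oxidative phosphorylation turns the electrons of nutrients into ATP. Complex I takes electrons from NADH, and complex II takes them from succinate and is also an enzyme of the citric acid cycle. Complex III passes them from ubiquinol to cytochrome c, and complex IV passes them on to oxygen. The proton gradient built on the way drives complex V, the ATP synthase. In liver this chain takes up the reducing equivalents of fatty acid oxidation, and a change in hepatic respiration is often described in fatty liver disease. The transcription factors NRF1, GABPA (of the ETS family), YY1 and ERRα are known to bind promoters of such genes, and ChREBP is known to bind an element made of paired E-box-like sequences.

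The libraries held 21254937 to 40327264 expected counts, of which the 78 genes made up 0.88% to 1.12% in LKO_NASH, 0.78% to 0.97% in WT_NASH, 0.89% to 0.99% in Ad_Chrebpa_HFLMCD and 0.91% to 1.04% in Ad_GFP_HFLMCD livers. The 8 hepatocyte markers summed to 44720 to 71870 FPKM over all livers, led by Alb, the gene of serum albumin. The 4 skeletal and cardiac muscle markers summed to at most 2.01 FPKM. Mlxipl, the targeted gene, ran from 47.46 to 100.11 FPKM in LKO_NASH and from 50.08 to 80.4 FPKM in WT_NASH livers (log2 fold change 0.06, adjusted p = 0.916, edgeR's quasi-likelihood test with Benjamini-Hochberg adjustment). It ran from 44.7 to 47.83 FPKM in Ad_Chrebpa_HFLMCD and from 38.95 to 48.47 FPKM in Ad_GFP_HFLMCD livers (log2 fold change 0.15, adjusted p = 0.241 in edgeR's test). A level over the whole gene does not separate the α isoform from the others, so the groups are called here by their labels and the extent of deletion or overexpression was not checked.

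The subunit transcripts were short and abundant. Their median level was 109.0 FPKM, with quartiles of 71.93 and 182.0, against 8.12 FPKM for the 10921 genes that averaged at least 1 FPKM. Their median transcript length was 675 bases, against 2716 bases for those genes. By complex, the median level was 73.2 FPKM in complex I, 141.5 in complex II, 157.7 in complex III, 217.6 in complex IV and 178.2 in complex V.

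Within complex I the highest level was that of Ndufa4, at 399.3 FPKM. Its paralog Ndufa4l2, known as a hypoxia-induced gene, had the lowest, at 1.80 FPKM. In complex II, Sdha, the flavoprotein that oxidises succinate, had 142.2 FPKM and the membrane anchor Sdhd had 93.9 FPKM. The small complex III subunit Uqcrq reached 403.0 FPKM and the core protein Uqcrc2 was lowest at 105.5 FPKM. Cox6a1, the liver form of a regulatory complex IV subunit, had 460.1 FPKM. Atp5b, the catalytic β subunit of complex V, had the highest level of all 78 genes at 584.4 FPKM, and the coupling factor Atp5s the lowest of complex V at 4.32 FPKM. The complexes therefore overlapped widely in level, and the low tail in each of complexes I, IV and V was a paralog or accessory gene and not a core subunit.

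The nearest genes inside the limit of 1 FPKM were Cox7a1 at 1.28, Ndufa4l2 at 1.80, Atp5s at 4.32, Ndufa11 at 16.3 and Ndufs4 at 24.8 FPKM. The genes with a matching symbol under it were Cox6b2 at 0.78, Cox6a2 at 0.56, Cox8b at 0.23 and Cox4i2 at 0.16 FPKM. Of these, Cox6a2, Cox7a1 and Cox8b are known as forms of heart and skeletal muscle, Cox6b2 as a form of testis and Cox4i2 as a form of lung. As a share of the FPKM of such a form plus its liver partner, Cox7a1 made up 0.47% to 2.8% in any liver, Ndufa4l2 0.21% to 0.76%, Cox6b2 0.034% to 0.55%, Cox4i2 0.021% to 0.17% and Cox8b 0 to 0.19%.

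Cox6a2 differed between the experiments. It stood at 0.05, 0.00, 0.21 and 0.10 FPKM in LKO_NASH livers and at 0.06, 0.14, 0.23 and 0.05 FPKM in WT_NASH livers. It had 0.82, 1.30, 1.34 and 0.96 FPKM in Ad_Chrebpa_HFLMCD livers and 0.67, 1.32, 0.83 and 0.80 FPKM in Ad_GFP_HFLMCD livers. Every liver on the NASH diet was below every liver on the HFLMCD diet, with 0 to 6 against 14 to 29 counts. In WT_NASH against Ad_GFP_HFLMCD livers its log2 fold change was -2.21 (SE 0.48, adjusted p = 0.00268 in edgeR's test), as a gene that falls under the level set for the 78. Over all genes tested in that comparison 30.9% were called lower. In FPKM 68.9% of them were lower with no overlap of the 2 groups, so such a separation was common. Cox6a2 made up at most 0.3% of its pair with Cox6a1 in any liver, so the difference concerned a trace transcript. The muscle markers, summed, reached at most 0.05 FPKM in both NASH-diet groups, 0.02 to 2.01 FPKM in Ad_Chrebpa_HFLMCD and 0.06 to 0.24 FPKM in Ad_GFP_HFLMCD livers, and their part in the Cox6a2 values was not tested.

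**Figure D1:**
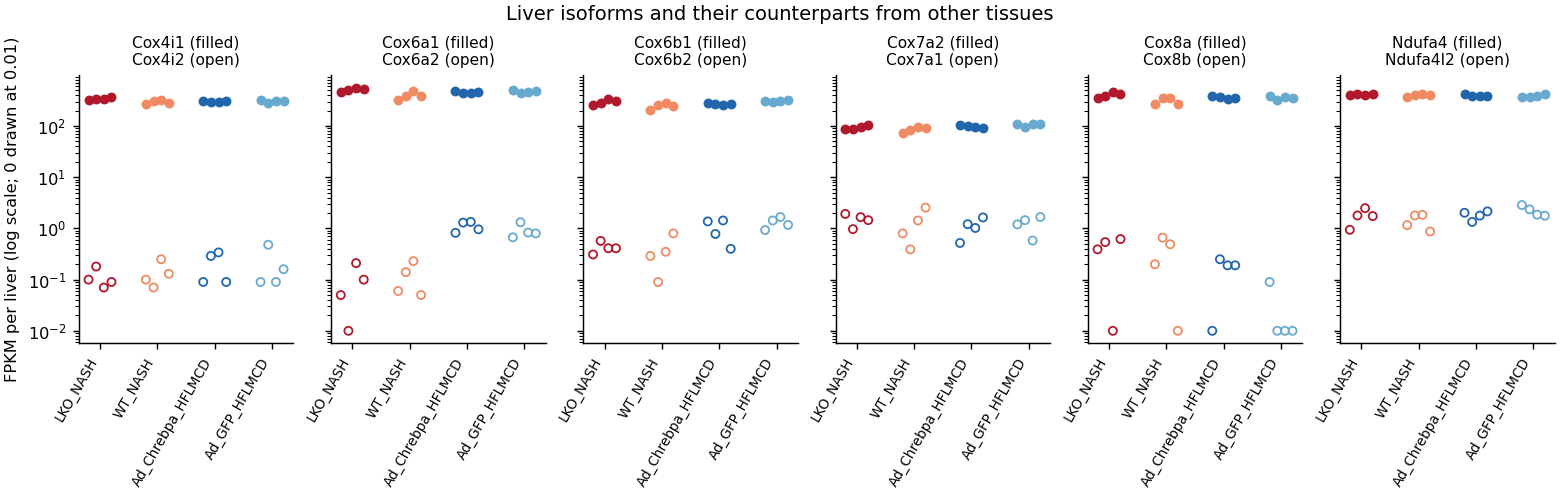
FPKM of 6 isoform pairs on a log axis, with 1 panel per pair and 1 point per liver in each of the 4 groups; filled points are the liver form, open points the other form, and a value of 0 is drawn at 0.01. The Cox6a2 points of both NASH-diet groups, at 0 to 0.23 FPKM, lie below those of both HFLMCD-diet groups, at 0.67 to 1.34 FPKM. In WT_NASH against Ad_GFP_HFLMCD livers 68.9% of all genes tested were lower in FPKM with no overlap.

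Promoter sequences show what these genes carry near their start sites. RefSeq windows of GRCm38.p6, from 250 bases before to 50 bases after the start, were matched to 66 of the 78 genes. The ETS letters CCGGAAG, on either strand, were in at least 1 window of 16 genes (24.2%), against 18.6% of the 10974 tested genes with a window. The NRF1 letters GCATGCGC were in 10 genes (15.2%, against 5.51%), the YY1 letters AAGATGGCG in 7 (10.6%, against 3.27%) and the ERRα letters TCAAGGTCA in 2 (3.03%, against 0.319%). At least 1 of the ETS, NRF1 and YY1 motifs was in 27 genes (40.9%), against 25.1% of the tested genes. The E-box CACGTG was in 6 (9.09%), against 11.3%, and these were Atp5f1, Atp5g1, Atp5g3, Atp5l, Ndufa7 and Ndufv1. Over all 32851 windows the shares were 8.86% for ETS, 2.71% for NRF1, 1.4% for YY1, 0.423% for ERRα and 7.15% for the E-box. A match says that the letters are present and does not show that a factor is bound.

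Shown are stretches around such motifs for genes described below, read 5′ to 3′ on the gene's own strand with the motif in capitals. Each stretch ends just before the start site, so matches after it are not shown. Those are an ETS match at bases 7 to 13 in Sdhb and an ERRα match at bases 37 to 45 in Sdhd. CTTCCGG is the ETS motif on the opposite strand, and in Cox6a1 the NRF1 motif on one strand overlaps that on the other in the 10 capitals. Cox6a1 is the most abundant complex IV subunit, Sdhb and Sdhd are the iron-sulfur and anchor subunits of complex II, and Atp5h is a stator subunit of complex V. Ndufa7 had the lowest p of complex I in the deletion comparison and an E-box. The other E-box genes had log2 fold changes there of 0.25 (Atp5g3), 0.053 (Atp5f1), -0.007 (Ndufv1), -0.035 (Atp5g1) and -0.095 (Atp5l). A link of the motif to these values was not tested.
Cox6a1, minus strand, chr5:115348959-115349128: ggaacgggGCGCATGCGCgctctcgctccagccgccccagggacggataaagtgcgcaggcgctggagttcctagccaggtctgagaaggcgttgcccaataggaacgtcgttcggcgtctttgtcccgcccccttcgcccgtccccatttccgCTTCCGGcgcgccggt
Sdhb, plus strand, chr4:140961211-140961270: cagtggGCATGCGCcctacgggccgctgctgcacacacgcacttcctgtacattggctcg
Sdhd, minus strand, chr9:50603850-50603909: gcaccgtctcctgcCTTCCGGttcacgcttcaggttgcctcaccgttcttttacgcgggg
Atp5h, minus strand, chr11:115419920-115419969: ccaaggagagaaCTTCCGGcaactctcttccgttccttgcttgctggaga
Ndufa7, plus strand, chr17:33824492-33824571: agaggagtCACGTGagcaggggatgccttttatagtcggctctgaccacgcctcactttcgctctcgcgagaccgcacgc

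Summed over the 78 genes, the level was 10464, 12027, 13261 and 12779 FPKM in LKO_NASH livers 21 to 24 and 9057, 10656, 11552 and 9681 FPKM in WT_NASH livers 17 to 20. It was 11523, 10823, 10424 and 10888 FPKM in Ad_Chrebpa_HFLMCD livers 13 to 16 and 11966, 10563, 11336 and 11624 FPKM in Ad_GFP_HFLMCD livers 9 to 12. The ranges of both pairs overlapped. Complex I summed to 3630 ± 365 FPKM in LKO_NASH, 3093 ± 315 in WT_NASH, 3194 ± 135 in Ad_Chrebpa_HFLMCD and 3337 ± 161 in Ad_GFP_HFLMCD livers (SD, n = 4 each). Complex V, below complex I in both NASH-diet groups and above it in both HFLMCD-diet groups on average, came to 3452 ± 356, 2951 ± 285, 3233 ± 135 and 3402 ± 169 FPKM in the same groups. In bulk tissue, fewer cells of a type and less RNA per cell cannot be told apart.

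**Figure D2:**
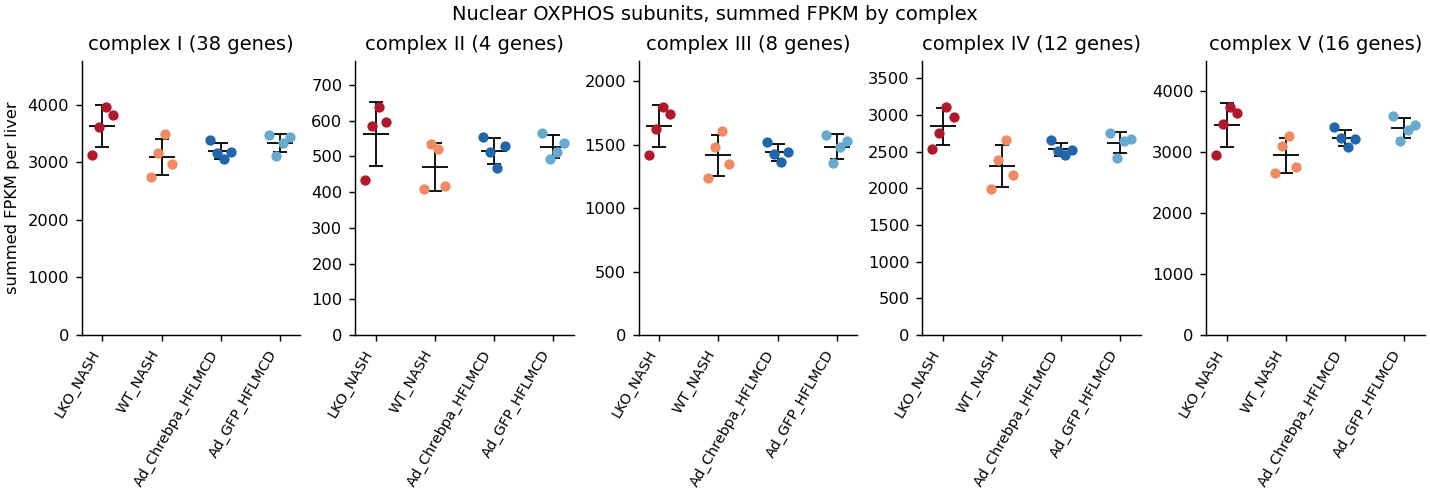
Summed FPKM of the subunit genes of each complex, with 1 panel per complex, 1 point per liver and the mean with SD of 4 livers per group. In all 5 panels the LKO_NASH points lie higher on average than the WT_NASH points and overlap them, and the Ad_Chrebpa_HFLMCD points overlap the Ad_GFP_HFLMCD points.

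The subunit genes moved together from liver to liver inside a group. For each liver log2(CPM + 1) of a gene, from counts relative to library size (CPM) scaled by trimmed mean of M-values (TMM), was set against the mean of the other 3 livers of its group. In LKO_NASH liver 23 the median over the 78 genes was 0.25 and 77 of 78 were above the others, while in liver 21 the median was -0.20 and 7 were above. In WT_NASH livers 18 and 19 the medians were 0.15 and 0.19, with 68 and 69 genes above, and in livers 17 and 20 they were -0.13 and -0.21, with 3 and 2 above. These 2 groups each held both high and low livers.

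The groups on the HFLMCD diet showed the same kind of spread. In Ad_Chrebpa_HFLMCD the median was 0.15 in liver 13, with 75 genes above, and -0.10 in liver 15, with 3 above. In Ad_GFP_HFLMCD it was 0.15 in liver 9, with 75 above, and -0.23 in liver 10, with 3 above. The medians of complexes I to V had 1 sign in each of livers 21, 23, 17, 18, 19, 20, 13, 15, 9 and 10. In liver 21, for example, they were -0.20 in complex I, -0.35 in complex II, -0.21 in complex III, -0.17 in complex IV and -0.21 in complex V.

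Other mitochondrial genes shared part of this. The 19 citric acid cycle genes had a median of -0.26 in liver 21, 0.18 in liver 23, -0.11 in liver 20 and -0.17 in liver 10. The assembly factors stood at -0.20, 0.18, -0.08 and -0.14 in those 4 livers. The mitochondrial ribosomal proteins followed less, at -0.02 in liver 21, 0.12 in liver 23, -0.08 in liver 20 and -0.17 in liver 10. The cytosolic ribosomal proteins, whose transcripts are also short and abundant, stood at 0.31, -0.08, 0.08 and -0.06 in the same livers. The hepatocyte markers stood at 0.27 in liver 21, 0.066 in liver 23, -0.015 in liver 20 and -0.30 in liver 10. Their part in the positions of the subunit genes was not tested.

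**Figure D3:**
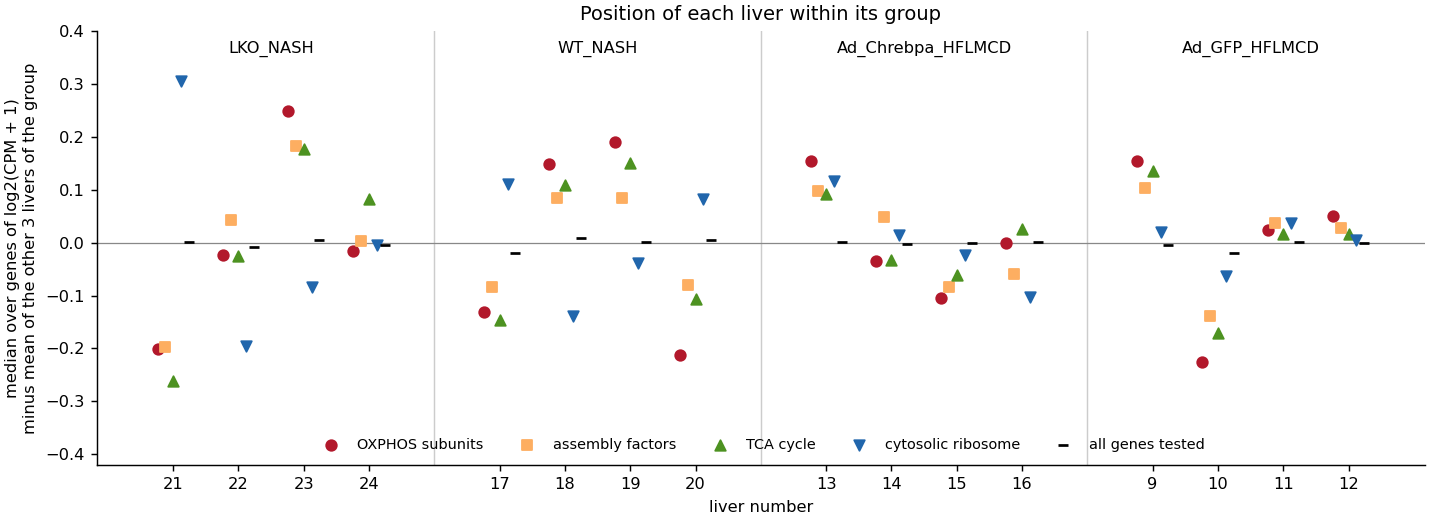
Median over genes of log2(CPM + 1) in a liver minus the mean of the other 3 livers of its group, by liver number and group, for the OXPHOS subunits (oxidative phosphorylation, circles), assembly factors, citric acid (TCA) cycle genes, cytosolic ribosomal proteins and all genes tested (dashes). The subunits lie highest in liver 23, at 0.25, and lowest in liver 10, at -0.23, while the dashes stay near 0.

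The deletion comparison asked what loss of ChREBPα in hepatocytes did to these genes under the NASH diet. None of the 78 subunit genes was called in LKO_NASH against WT_NASH livers at an adjusted p under 0.05 in edgeR's quasi-likelihood test with Benjamini-Hochberg adjustment over 12786 genes. Over all of these genes 0.0% were called higher and 0.0% lower, and 985 were higher and 752 lower at an unadjusted p under 0.05. DESeq2, fitted to a larger set of 16583 genes, called 83 higher and 68 lower. Of the 78, 1 had an unadjusted p under 0.05 in edgeR's test. The log2 fold change was positive in 59 genes and negative in 19, that is positive in 75.6%, against 51.5% of all genes tested. The median was 0.09, against 0.01 over all genes tested. It depended on single livers, with 0.03 and 45 genes positive without liver 23, 0.03 without liver 20, 0.05 without liver 17 and 0.14 without liver 19. The range over the 78 ran from -0.15 for Ndufc1 to 0.34 for Ndufc2, both accessory subunits of complex I. By complex the median was 0.11 in complex I, 0.12 in complex II, 0.09 in complex III, 0.08 in complex IV and 0.06 in complex V.

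Cox7c, a small membrane subunit of complex IV, had the lowest p. Its TMM-scaled CPM values were 122.9, 129.1, 164.2 and 125.3 in LKO_NASH livers and 106.4, 114.1, 123.0 and 95.69 in WT_NASH livers. The groups overlapped, with LKO_NASH liver 23 highest and WT_NASH liver 19 level with the lowest LKO_NASH liver. The log2 fold change of Cox7c was 0.30 (SE 0.13, adjusted p = 0.36 in edgeR's test). The complex IV subunits Cox8a and Cox6a1 followed with log2 fold changes of 0.24 (SE 0.14) and 0.21 (SE 0.13).

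In complex I, Ndufa7 stood at 49.44, 53.91, 61.13 and 53.93 CPM in LKO_NASH livers and at 39.27, 47.97, 53.93 and 38.18 in WT_NASH livers. Its log2 fold change was 0.28 (SE 0.13, adjusted p = 0.37). Ndufc2 stood at 39.43, 50.16, 68.85 and 51.49 in LKO_NASH livers and at 35.32, 40.73, 53.01 and 36.18 in WT_NASH livers. In both genes liver 23 was highest among LKO_NASH and liver 19 highest among WT_NASH livers, and the groups overlapped. Ndufa13, known also as a cell death regulator, showed a log2 fold change of 0.25 (SE 0.14).

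Core subunits of complex I that bind flavin or iron-sulfur clusters lay on either side of the complex median, with log2 fold changes of 0.03 for Ndufs1, -0.01 for Ndufv1, 0.13 for Ndufs7 and 0.14 for Ndufs8. In complex II, Sdha had 371.7, 471.9, 507.4 and 469.9 CPM in LKO_NASH livers and 353.7, 472.9, 472.2 and 343.7 in WT_NASH livers, with wide overlap. Its log2 fold change was 0.15 (SE 0.16, adjusted p = 0.642). Sdhb, Sdhc and Sdhd had log2 fold changes of 0.14, 0.11 and -0.02. In complex III these were 0.12 for the core protein Uqcrc1, -0.04 for Uqcrc2 and 0.10 for the Rieske protein Uqcrfs1, and 0.23 (SE 0.17) for the small subunit Uqcr11 and 0.12 (SE 0.09) for Uqcr10. None of these was separable from 0 at this spread.

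In complex IV, Cox4i1 showed a log2 fold change of 0.08, Cox5a of 0.08 and Cox5b of 0.23. In complex V, Atp5a1 and Atp5b, the α and β subunits of the catalytic head, had 0.13 and 0.05, and Atp5c1, the rotating γ subunit, had 0.07. The lowest p of complex V were those of Atp5g3, a gene of the c-ring (0.25, SE 0.15), Atp5e, the ε subunit (0.18, SE 0.13), and Atp5d, the δ subunit (0.17, SE 0.14). Their adjusted p were 0.458, 0.522 and 0.555 in edgeR's test.

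Cell-type markers had shifts of their own in this comparison, none of them called, as no gene was called in this fit. All 7 macrophage markers and all 4 lymphocyte markers tested were positive, with medians of 0.68 and 0.77, and so were all 4 erythroid markers (0.52). Of 4 sinusoidal endothelium and 5 stellate cell markers 3 and 4 were positive, and of 4 cholangiocyte and 2 neutrophil markers 1 and 0. The lymphocyte markers were near the floor, with sums of 1.97 to 2.43 FPKM in LKO_NASH and 1.05 to 1.49 FPKM in WT_NASH livers. For the erythroid markers these sums were 2852 to 5508 and 1715 to 4006 FPKM. The macrophage markers summed to 41.7 to 89.5 FPKM in LKO_NASH and 31.68 to 61.13 FPKM in WT_NASH livers. Of 8 hepatocyte markers 2 were positive, with a median of -0.28 and a sum of 57970 to 66270 FPKM in LKO_NASH and 59110 to 71870 FPKM in WT_NASH livers. Of 77 cytosolic ribosomal proteins 9 were positive (median -0.14). Their part in the shift of the subunit genes was not tested.

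How much was called depended on livers 19 and 21, a pair chosen for omission with earlier results known. Without both, edgeR's test called 1525 genes and 4.84% of the genes tested were called higher. Of the subunit genes 3 were then called higher, all of complex I: Ndufc2 (log2 fold change 0.60, adjusted p = 0.0361), Ndufa6 (0.55, adjusted p = 0.0427) and Ndufa7 (0.43, adjusted p = 0.0491). Without liver 21 alone 420 genes and none of the 78 were called. Liver 21 had the lowest summed subunit level among LKO_NASH livers and liver 19 the highest among WT_NASH livers, so leaving out the pair moves the groups apart by construction. On deposited FPKM, tested as log2(FPKM + 1) with limma, 77 of 78 subunit genes had a positive difference with a median of 0.23, against 0.11 over all genes, and none was called.

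**Figure D4:**
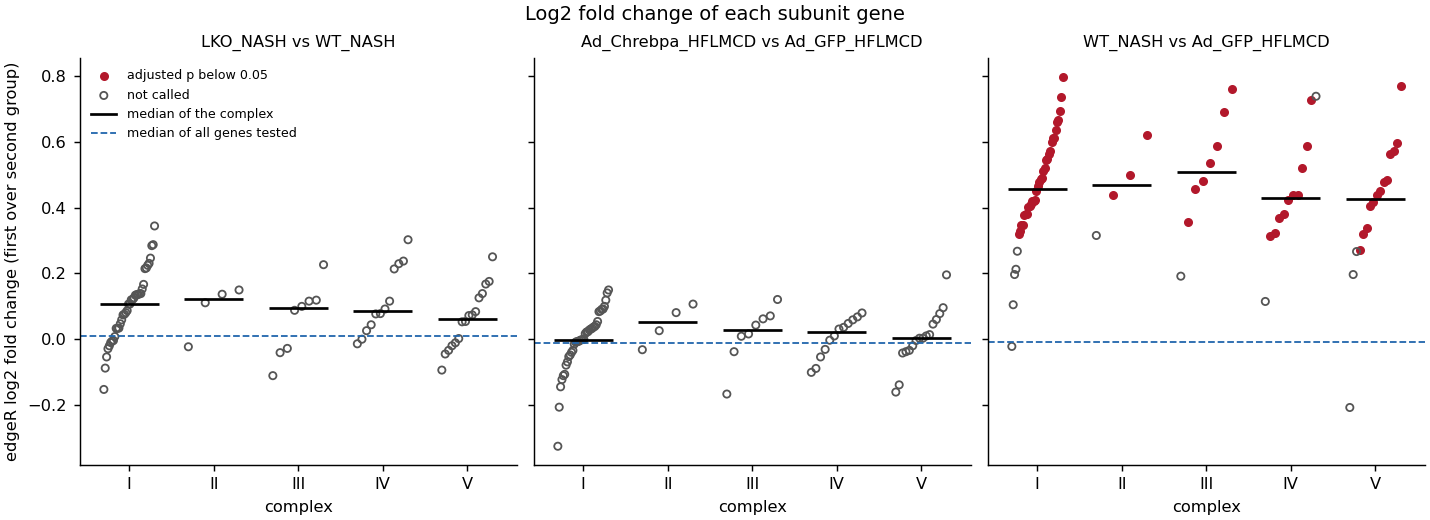
Log2 fold change of each subunit gene from edgeR in the 3 comparisons, arranged by complex, with the median of each complex and filled points for genes called at an adjusted p under 0.05; a dashed line marks the median of all genes tested. No point is filled in the deletion and overexpression panels, and 66 are filled in the panel of WT_NASH against Ad_GFP_HFLMCD livers, a direction that does not hold on the FPKM scale.

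The overexpression comparison asked the converse under the HFLMCD diet. Here too none of the 78 genes was called in Ad_Chrebpa_HFLMCD against Ad_GFP_HFLMCD livers, while 4.95% of the 13658 genes tested were called higher and 3.18% lower. On log2(FPKM + 1) the split of calls turned, since 30.3% of all called genes were then higher, against 60.9% in edgeR's test. Of the subunit genes, 1 was higher and 3 were lower at an unadjusted p under 0.05, and DESeq2 called 1 of them. The log2 fold change was positive in 43 and negative in 35, with a median of 0.01, against -0.01 over all genes tested. The medians of the complexes lay within a narrow band, at 0.00 in complex I, 0.05 in complex II, 0.03 in complex III, 0.02 in complex IV and 0.00 in complex V. The biological coefficient of variation estimated by edgeR was 0.126 here and 0.221 in the deletion comparison.

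Ndufa12, an accessory subunit of complex I, came nearest to a call. It had 47.15, 38.63, 36.92 and 39.85 CPM in Ad_Chrebpa_HFLMCD livers and 57.15, 44.38, 50.06 and 52.30 in Ad_GFP_HFLMCD livers. Ad_Chrebpa_HFLMCD liver 13 lay inside the range of the Ad_GFP_HFLMCD livers, and the other 3 lay below it. The log2 fold change was -0.33 (SE 0.10, adjusted p = 0.0628 in edgeR's test). DESeq2 called it lower (adjusted p = 0.025), and edgeR called it lower without liver 10 (adjusted p = 0.0433) or without liver 13 (adjusted p = 0.039). For Ndufa8, another accessory subunit, it was -0.15 (SE 0.06, adjusted p = 0.176), and for Ndufv3 0.15 (adjusted p = 0.201).

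In CPM the groups did not overlap in 1 subunit gene that was higher and 1 that was lower, against 8.94% and 7.49% of all genes tested. Both were of complex V. In FPKM, where the share over all genes was not calculated, 1 subunit gene was higher and 5 were lower. Of the lower ones 2 were of complex I and 1 each of complexes III, IV and V. All genes lay lower on that scale, with a median of -0.07 on log2(FPKM + 1) and 428 called higher against 984 lower. These FPKM counts therefore cannot be read as particular to the subunit genes. Atp5h, of the stator, had 114.0, 100.1, 95.46 and 99.17 CPM in Ad_Chrebpa_HFLMCD livers and 90.63, 82.14, 92.23 and 91.94 in Ad_GFP_HFLMCD livers. Its log2 fold change was 0.20 (SE 0.07, adjusted p = 0.102). Atp5k, the e subunit known for holding ATP synthase dimers together, had 33.97, 30.38, 33.95 and 30.81 in Ad_Chrebpa_HFLMCD livers and 36.40, 35.04, 35.04 and 37.91 in Ad_GFP_HFLMCD livers. Its log2 fold change was -0.16 (SE 0.06, adjusted p = 0.126), so neither passed the test over all genes.

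The core subunits differed little. Over Ndufs1, Ndufv1, Ndufs7, Ndufs8, the 4 complex II genes, Uqcrc1, Uqcrc2, Uqcrfs1, Cox4i1, Cox5a, Cox5b, Atp5a1, Atp5b and Atp5c1 the largest log2 fold change in size was 0.11 (SE 0.07), that of Sdhd, and the smallest was 0.00, that of Atp5c1. Uqcr10 of complex III had -0.17 (adjusted p = 0.243) and Cox6b1 of complex IV had -0.10 (adjusted p = 0.305). On log2(FPKM + 1) limma called 4 of the 78 lower, namely Ndufa12 (-0.39), Ndufa8 (-0.22), Atp5k (-0.23) and Cox6b1 (-0.17), where 8.67% of all genes tested were called lower. The median over all genes was -0.07 on that scale and that over the subunit genes was -0.06.

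Livers of the 2 control groups were set side by side as well. WT_NASH and Ad_GFP_HFLMCD livers differ in diet, feeding time, virus and floxed genotype, which cannot be told apart. They also serve as the controls of both other comparisons. In edgeR's test 66 of the 78 subunit genes were called higher in WT_NASH than in Ad_GFP_HFLMCD livers and none lower, where 28.2% of 13488 genes were called higher and 30.9% lower. On FPKM this direction was lost: limma on log2(FPKM + 1) called none of the 78 higher and 25 lower, where 6.02% of genes were called higher and 73.7% lower. The share of all calls that were higher was 47.7% in edgeR's test and 7.6% on FPKM.

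What held on both scales was the place of the subunit genes among all genes. Their median log2 fold change was 0.44 in edgeR's test, a 1.36-fold difference, against -0.01 over all genes tested, and on log2(FPKM + 1) it was -0.19, against -0.48. The subunit median thus lay above that of all genes by 0.45 in edgeR's test and by 0.29 on FPKM, with 76 and 75 of the 78 genes above it. With no filter on low genes the FPKM difference was 0.13, with 66 genes above. Several lists shared this place. With the filter, FPKM medians lay above that of all genes by 0.37 for mitochondrial biogenesis regulators and 0.25 for citric acid cycle genes. Electron carriers lay 0.23, quality control genes 0.22, mitochondrial ribosomal proteins 0.13, assembly factors 0.08 and import proteins 0.06 above it. Cytosolic ribosomal proteins stood at -0.115 against it, uncoupling and ADP/ATP carriers at -0.846, hepatocyte markers at 1.044 and macrophage markers at -2.208. The TMM factors of these 8 libraries ran from 0.772 to 1.28. The 100 most abundant genes took 46.9% to 49.4% of the counts in WT_NASH and 33.3% to 35.5% in Ad_GFP_HFLMCD livers, and the part of this in the difference was not tested.

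**Figure D5:**
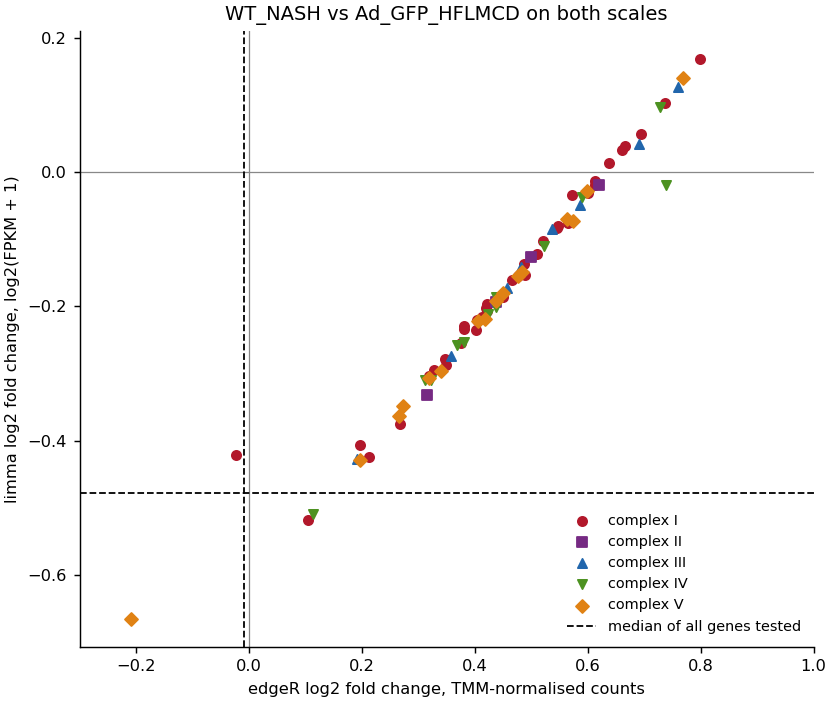
Log2 difference of WT_NASH against Ad_GFP_HFLMCD livers for each subunit gene, from edgeR on counts on the x axis and from limma on log2(FPKM + 1) on the y axis, with a colour and shape per complex and dashed lines at the median of all genes tested. On the count axis 76 points lie above 0 and on the FPKM axis 10 do, while 76 and 75 of 78 lie above the median of all genes.

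On counts all 5 complexes had positive medians, which turned negative on FPKM. Called higher in edgeR's test, with this caveat of scale, were 33 of 38 genes in complex I, 3 of 4 in complex II, 7 of 8 in complex III, 10 of 12 in complex IV and 13 of 16 in complex V. The median log2 fold changes were 0.46, 0.47, 0.51, 0.43 and 0.43 in this order, and -0.17, -0.16, -0.11, -0.21 and -0.21 on log2(FPKM + 1). In CPM the 2 groups did not overlap in 60 of the 78 genes, all higher in WT_NASH, against 25.9% of all genes tested. In FPKM they did not overlap in 1 gene that was higher and 14 that were lower, against 4.51% and 68.9% of all genes tested.

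The change of scale moved the subunit genes by nearly the same amount. The edgeR value minus the FPKM value had a median of 0.63 and lay within 0.1 of it in 75 of 78 genes, so only genes with a larger log2 fold change on counts stayed above 0 on FPKM. Ndufb11, an accessory subunit in the membrane arm of complex I, had 113.7, 131.0, 134.8 and 108.0 CPM in WT_NASH livers and 74.57, 62.02, 70.76 and 72.87 in Ad_GFP_HFLMCD livers. The groups did not overlap in CPM but did in FPKM, and the log2 fold change was 0.80 (SE 0.10, adjusted p = 8.12e-05). Atp5h had 125.4, 137.0, 125.3 and 114.8 CPM in WT_NASH livers and 74.57, 68.53, 75.39 and 76.33 in Ad_GFP_HFLMCD livers, with no overlap in CPM or FPKM (0.77, SE 0.08, adjusted p = 2.7e-05). Positive on both scales were these 2 genes and Ndufa3, Ndufa4, Ndufa6, Ndufb9, Ndufs7, Uqcrq, Uqcr11 and Cox6c, although none of the 10 was called on FPKM.

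Uqcrq, which lies beside cytochrome b in complex III, had 206.7, 241.1, 292.0 and 221.6 CPM in WT_NASH livers and 151.9, 122.4, 144.0 and 149.4 in Ad_GFP_HFLMCD livers (log2 fold change 0.76, SE 0.12, adjusted p = 0.000469). Cox6c had 112.4, 147.6, 142.5 and 124.6 in WT_NASH livers and 83.51, 69.9, 86.18 and 78.71 in Ad_GFP_HFLMCD livers (0.73, SE 0.11, adjusted p = 0.000262). In CPM every WT_NASH liver was above every Ad_GFP_HFLMCD liver in both genes, while in FPKM the groups overlapped. Ndufb9, Ndufa6, Uqcr11, Ndufs7, Ndufa3 and Ndufa4 had log2 fold changes of 0.74, 0.69, 0.69, 0.67, 0.66 and 0.64.

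The same shift took Sdha and many other subunits across 0. Sdha had 416.8, 557.6, 556.5 and 404.4 CPM in WT_NASH livers and 339.7, 292.9, 302.9 and 323.5 in Ad_GFP_HFLMCD livers, with no overlap. Its log2 fold change was 0.62 (SE 0.13, adjusted p = 0.00237), but -0.02 on log2(FPKM + 1). Its FPKM was 112.37, 149.31, 159.03 and 119.65 in WT_NASH livers and 143.57, 130.52, 129.97 and 138.42 in Ad_GFP_HFLMCD livers, with full overlap. Cox4i1 had 0.59 in edgeR's test and -0.04 on FPKM, and Atp5l, a subunit of the membrane part of complex V, 0.60 and -0.03. Sdhd had 0.50 and -0.13, and Sdhc 0.44 and -0.19.

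Not called on counts were 12 genes. They included Atp5b (log2 fold change 0.27, adjusted p = 0.0703), Sdhb (0.32, adjusted p = 0.118), Ndufa12 (0.10), Cox7a2l (0.11), Cox7a1 (0.74, SE 0.49), Ndufa4l2 (-0.02) and Atp5s (-0.21). The others were Atp5g2, Uqcr10, Ndufa8, Ndufs4 and Ndufc2. On FPKM several of these were called lower, with Atp5s at -0.67 (adjusted p = 0.000111 in limma), Ndufa12 at -0.52 and Cox7a2l at -0.51.

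Genes that serve the chain were followed in the same fits. The lists held assembly factors, electron carriers, regulators of mitochondrial biogenesis, citric acid cycle enzymes, ribosomal proteins, import proteins, carriers and quality control genes. In LKO_NASH against WT_NASH livers none of all 12786 genes tested was called, so no list could hold a call. In Ad_Chrebpa_HFLMCD against Ad_GFP_HFLMCD livers 2 of 47 assembly factors fell and none rose, with a median log2 fold change of 0.00 over the list. Over all genes 4.95% were called higher and 3.18% lower, and 2 of 47 lies near that share. The 2 genes were Cox18, which inserts a complex IV subunit into the membrane (-0.78, adjusted p = 0.00988), and Uqcc2, of complex III assembly (-0.33, adjusted p = 0.0341). Of 20 electron carrier genes, Etfdh, which hands electrons of fatty acid oxidation to ubiquinone, rose (0.38, adjusted p = 0.00814), as did Coq8a of ubiquinone synthesis (0.70, adjusted p = 0.0459). Gpd2, the mitochondrial glycerol phosphate dehydrogenase, fell (-0.42, adjusted p = 0.0125). The median of these carriers was 0.01. None of 19 citric acid cycle genes was called, and their median was also 0.01.

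Of 14 regulators, with a median of 0.07, 3 rose and 1 fell with overexpression, where 4.95% of all genes were called higher and 3.18% lower. The coactivator Ppargc1b (log2 fold change 0.86, adjusted p = 0.0341) and Ppara, the receptor that drives fatty acid oxidation genes (0.49, adjusted p = 0.0173), rose, and the coactivator Pprc1 fell (-0.48, adjusted p = 0.0154). Gabpa also rose (0.20) and was named after its values were seen. Among 20 genes of mitochondrial dynamics and quality control, 3 rose, namely the mitophagy genes Pink1 (0.45, adjusted p = 0.0033), Bnip3 (0.31) and Bnip3l (0.28). On log2(FPKM + 1) Coq8a, Ppargc1b, Gabpa and Bnip3l did not pass. Of 75 mitochondrial ribosomal protein genes 2 rose, Mrpl45 and Mrps9, which is below the share over all genes. On log2(FPKM + 1) 2 of the 75 were called higher and 6 lower, and 2 citric acid cycle genes were called lower. Over all genes 8.67% were called lower on that scale, and 6 of 75 lies near that share. Of the cell-type markers, 3 of 4 for cholangiocytes fell, with a summed level of 4.18 to 5.21 FPKM in Ad_Chrebpa_HFLMCD and 7.48 to 11.93 FPKM in Ad_GFP_HFLMCD livers, and their part in the mitochondrial values was not tested. Apoa1 of the hepatocyte markers and Itgax of the macrophage markers rose (0.34 and 0.40), and on log2(FPKM + 1) Apoa1 passed but Itgax did not. Of the 7 macrophage markers only 3 were positive, with a median of -0.09, and of the 8 hepatocyte markers 7 were positive, with a median of 0.26. Hba-a2 rose and Hba-a1 fell (6.06 and -0.94), near-identical globin copies between which reads may be split, and the 4 erythroid markers summed to 372.2 to 1011 FPKM in Ad_Chrebpa_HFLMCD and 675.4 to 1098 FPKM in Ad_GFP_HFLMCD livers.

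In WT_NASH against Ad_GFP_HFLMCD livers the lists shared the direction of the subunits in part, and with the same dependence on scale. Over all genes 28.2% were called higher and 30.9% lower in edgeR's test, against 6.02% and 73.7% on FPKM. In edgeR's test 12 of 19 citric acid cycle genes were called higher and 3 lower (median log2 fold change 0.41), against 2 higher and 10 lower on FPKM. Fh1, fumarase, was higher on both scales (1.32 and 0.69), and Idh2, Idh3a and Cs, the citrate synthase, were lower on both (-0.92 and -1.54, -0.64 and -1.21, -0.40 and -1.01) and were named after their values were seen. Of 47 assembly factors 18 were called higher and none lower in edgeR's test, against 2 and 36 on FPKM. Of 75 mitochondrial ribosomal proteins 40 were called higher and 1 lower, against 0 and 62. The 36 of 47 and 62 of 75 called lower on FPKM were not far from the share over all genes. Of 14 regulators 8 were called higher and 2 lower in edgeR's test, against 3 and 5 on FPKM. Among them Tfb2m, a mitochondrial transcription factor, and Ppara were higher on both scales (1.07 and 0.41, 1.23 and 0.59), and Pprc1 was lower on both (-0.85 and -1.24). Ucp2, an uncoupling protein relative, and Slc25a4, an ADP/ATP carrier, were lower on both (-2.33 and -2.90, -1.54 and -1.88).

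Cell-type markers also differed between these control livers, where 28.2% of all genes were called higher and 30.9% lower in edgeR's test. On FPKM these shares were 6.02% and 73.7%. All 8 hepatocyte markers were called higher in edgeR's test and 5 on FPKM, where Ahsg turned to -0.15. Their median log2 fold change was 1.23 in edgeR's test and 0.57 on FPKM, with a summed level of 59110 to 71870 FPKM in WT_NASH and 44720 to 54720 FPKM in Ad_GFP_HFLMCD livers. Of 7 macrophage markers 5 were called lower and 1 higher, with a summed level of 31.68 to 61.13 FPKM in WT_NASH and 221.1 to 387.3 FPKM in Ad_GFP_HFLMCD livers. Of 5 stellate cell markers 4 were called lower, with a summed level of 11.74 to 17.14 FPKM in WT_NASH and 77.08 to 130.7 FPKM in Ad_GFP_HFLMCD livers. All 4 erythroid markers were called higher, and 4 of 5 lymphocyte and both neutrophil markers lower. The lymphocyte markers were near the floor, with sums of 1.05 to 1.49 FPKM in WT_NASH and 4.43 to 10.41 FPKM in Ad_GFP_HFLMCD livers. Only 1 of these 5 passed the filter on FPKM. The 77 cytosolic ribosomal proteins, with 5 called higher and 8 lower, had a median of 0.03 on counts and -0.59 on FPKM. The part of the cell-type markers in the difference of the subunit genes was not tested.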

How the data were processed

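RNA of 16 livers was sequenced as 1 library each. The deposited tables give expected counts (estimated fragments per gene, not normalised) and FPKM calculated by the authors, per the file headers. The aligner was HISAT2 per the submitters' processing notes. For the counter, build and annotation, nothing is stated in those sources. Of the deposited expected counts in a library, 25.3% to 27.2% had decimals, and they were rounded. Genes under 0.01 FPKM were not listed and were taken as 0. Of 17436 entries, 26 named by a transcript were summed into their gene. Reads shared with processed pseudogenes or near-identical copies may be split, so levels of single members are uncertain in that respect.

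Under R 4.3.3, a two-sided quasi-likelihood test of edgeR 4.0.16 was run on the counts, after filterByExpr and TMM scaling, in separate fits of 8 libraries, and genes with a Benjamini-Hochberg adjusted p under 0.05 over all tested genes were called. FPKM was tested with limma 3.58.1 on log2(FPKM + 1), which understates changes of low genes. The test was also tested on simulated data. DESeq2 1.42.0, limma-voom, other size factors, filters, pseudocounts and fits, and leaving out livers, were alternatives. The members and all lists were chosen with earlier results of these data known. Named were fixed core subunits, isoform pairs, the 3 lowest p per complex and comparison, up to 10 called members, extremes of level, and up to 3 called genes per list; 1 gene under this rule is not reported here. Promoters came from RefSeq GRCm38.p6. Plots used Python 3.11.15 with pandas 2.3.3, NumPy 2.4.6 and matplotlib 3.10.9.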

Additional observations from a re-analysis of the deposited data

Results flagged for a closer look

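Ndufb11 in LKO_NASH livers was at 118.92 FPKM in liver 21, with the nearest other liver at 133.26 FPKM, a gap that took a share of 0.925 of the group's range, above Dixon's critical value for 4 samples. Chance flags about 1 in 20 groups, and 1 of 100 groups of livers tested was flagged here.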

How the results depend on the processing

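No paired analysis was possible because the replicate numbers of the groups, 9 to 24, are all different. In the deletion comparison, called genes numbered 0 with edgeR, limma-voom and FPKM, but 151 with DESeq2, 152 with all 16 libraries in 1 fit and 1525 without livers 19 and 21, where 3 subunit genes were called higher; leaving out 1 liver gave 0 to 420, with 420 without liver 21. Leaving out 1 liver, the median of complex V ran from -0.01 to 0.11. On log2(FPKM + 1) complexes III and V had 0.246 and 0.211, and with 0.1 added 0.247 and 0.212, with 0.253 in complex IV and 0.243 over all members.

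In the overexpression comparison called genes numbered 1110, and 1902 with DESeq2, 336 with all libraries, 444 at 1.5-fold or more, and 400 without liver 16 to 1722 without liver 14. Subunit genes called lower numbered 0, and 1 with DESeq2, 4 on FPKM with either pseudocount, 3 without a filter, and 0 to 1 without 1 liver.

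In the control livers, FPKM gave 0 subunit genes called higher and 25 lower (22 without a filter), and with 1.5-fold or more edgeR called 5017 genes and 17 subunit genes higher. With no FPKM minimum 1 gene was lower, Cox6a2. Medians over all members and complexes I to V reversed to -0.186, -0.173, -0.159, -0.113, -0.206 and -0.206 with 1 added, filtered or not, and to -0.188, -0.176, -0.161, -0.114, -0.206 and -0.206 with 0.1 added. Single genes that reversed, with 1 and 0.1 added, were Atp5j (-0.072 both), Atp5l (-0.027 both), Cox4i1 (-0.036 both), Cox7b (-0.11 and -0.112), Sdha (-0.019 and -0.02), Sdhc (-0.193 and -0.194), Sdhd (-0.126 and -0.127), Uqcrb (-0.049 and -0.05) and Uqcrh (-0.085 and -0.086). Leaving out 1 liver left 57 to 68 subunit genes called higher, with medians of 0.39 to 0.51. The cause was not tested.

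With FPKM of each liver rescaled to the same total over all genes, the sums in LKO_NASH, WT_NASH, Ad_Chrebpa_HFLMCD and Ad_GFP_HFLMCD livers were 6546, 5415, 6180 and 6479 in complex I, 1017, 824, 997 and 1023 in II, 2968, 2483, 2787 and 2885 in III, 5123, 4033, 4898 and 5086 in IV, 6227, 5165, 6257 and 6605 in V, and 21882, 17921, 21120 and 22077 over all members.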
